A study of Mus musculus with 6 samples.

Results

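Genes for 9 transcription factors that mark interneurons of the mouse retina were followed: Vsx1, Isl1, Prox1, Bhlhe22, Sebox, Pax6, Tfap2a, Tfap2b and Onecut2. They were taken as a list of symbols, drawn up with earlier results of these data known, and are 9 of the 52636 genes in the count table. All 9 had counts, from 71 unique molecular identifiers (UMIs, each of which tags 1 captured RNA molecule) for Onecut2 to 3588 for Pax6 over all cells.

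Interneurons carry signals between the photoreceptors and the ganglion cells. Bipolar cells form the direct path, with rod bipolar cells serving rods, and ON and OFF cone bipolar cells answering light increments and decrements, while horizontal cells and amacrine cells act sideways on that path. Each class keeps, in the adult, a combination of transcription factors: Vsx1 and Isl1 are homeodomain factors of bipolar cells, Prox1 is a homeodomain factor of horizontal cells and of some bipolar and amacrine cells, Bhlhe22 is a basic helix-loop-helix factor of some OFF bipolar and amacrine cells, Pax6 and the AP-2 factors Tfap2a and Tfap2b belong to amacrine and horizontal cells, and Onecut2 belongs to horizontal cells.

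The data are droplet single-cell RNA counts (10x Genomics 3′ kit, which reads the 3′ end of transcripts) from the retinas of male C57BL/6J mice aged 12 months, 3 Dram2 wt/wt and 3 Dram2 ko/ko. The ko allele (tm1Jean) is a constitutive CRISPR/Cas9 deletion of exon 4 of Dram2, a lysosomal membrane protein gene linked to retinal dystrophy, so every cell of a ko/ko mouse carries it. The comparison asks whether loss of Dram2 changes the retina, and a retina was taken as the replicate. The sample labels name retina as the tissue, whereas a design text deposited with them speaks of choroid and of a different number of samples.

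The table held 46375 cells, with 3463728 to 6563762 UMIs per retina. The cell types deposited by the authors were used as given: 42359 photoreceptors, 2083 interneurons, 942 glia, 246 mesenchymal cells, 116 retinal pigment epithelium (RPE) cells and 629 cells with no type. There were 160 to 610 interneurons per retina, and their median depth was 1844 UMIs per cell against 428 in photoreceptors. Replicate 3 of each genotype stood apart. These 2 retinas, marked as batch 1 in the deposited table, had 2.75% and 3.22% of UMIs on mitochondrial genes against 0.405% to 0.720% in the 4 retinas of batch 2, and they held most cells of the amacrine classes. The Dram2 counts read a part of the transcript outside exon 4 and were 27.4 to 56.0 CPM over all cells (UMIs of a gene scaled to a fixed total of UMIs), with overlapping genotypes, so they cannot check the labels. P-values below measure the spread between these retinas.

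Bases before the start of Isl1 and Sebox are shown because these genes were seen together in more cells than their shares give, in the results that follow. The windows come from RefSeq (GRCm38.p6) and hold the 250 bases before the RefSeq start, 5′ to 3′ on the strand of the gene. Windows were taken for 7 of the 9 members, since Onecut2 was left out of the search and Bhlhe22 had no entry. GENCODE, from which the gene coordinates in this text come, lets Vsx1 and Sebox start further upstream, so the stretches printed end where the GENCODE transcript begins. The Vsx1 window, of which 223 bases lie inside the GENCODE transcript, is not printed. Capitals mark the letters TAATCC, the core that OTX and CRX factors read, TAATTA, a homeodomain core, CAGCTG, an E-box, or GCCNNNGGC, an AP-2 core, each searched on both strands.
Isl1 (chr13:116309690-116309938, minus strand): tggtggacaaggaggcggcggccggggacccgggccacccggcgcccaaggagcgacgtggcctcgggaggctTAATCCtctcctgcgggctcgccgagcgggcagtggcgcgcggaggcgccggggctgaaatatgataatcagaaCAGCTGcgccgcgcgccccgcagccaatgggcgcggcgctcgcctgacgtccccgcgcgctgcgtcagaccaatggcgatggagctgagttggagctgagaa
Sebox (chr11:78503263-78503446, plus strand): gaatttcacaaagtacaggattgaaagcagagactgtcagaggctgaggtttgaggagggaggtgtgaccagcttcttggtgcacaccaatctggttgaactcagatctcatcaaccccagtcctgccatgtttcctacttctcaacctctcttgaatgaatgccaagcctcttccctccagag
The whole Vsx1 window held 2 matches to CAGCTG, that of Isl1 held 1 to TAATCC and 1 to CAGCTG, and that of Sebox held no match to the 4 sets of letters. Among 32851 promoter windows of the same length, 6.25% held TAATCC, 4.84% TAATTA, 13.0% CAGCTG and 13.7% GCCNNNGGC, so single matches are common and are given as a description only.

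Across the 5 cell types, 8 of the 9 members had their highest mean level in interneurons, and Pax6 was higher in glia. Levels here are CPM of the UMIs summed per retina and cell type, and since the 3′ kit gives about 1 count per molecule they were not divided by gene length. The types were themselves made from these counts, so levels between types are described and not tested. Isl1 reached 445 ± 145 CPM in interneurons (SD, n = 6 retinas), Prox1 399 ± 109, Vsx1 185 ± 17.5 and Sebox 146 ± 56.0. For these 4 genes the lowest interneuron value lay above the highest value in the next cell type. The mean of Tfap2b was 107 ± 116 CPM, that of Bhlhe22 42.6 ± 14.98, that of Tfap2a 17.0 ± 19.6 and that of Onecut2 7.52 ± 4.07. For these 4 the interneuron range overlapped that of the next type, which for Bhlhe22 and Tfap2b was RPE with 2 UMIs and 1 UMI in all.

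**Figure D1:**
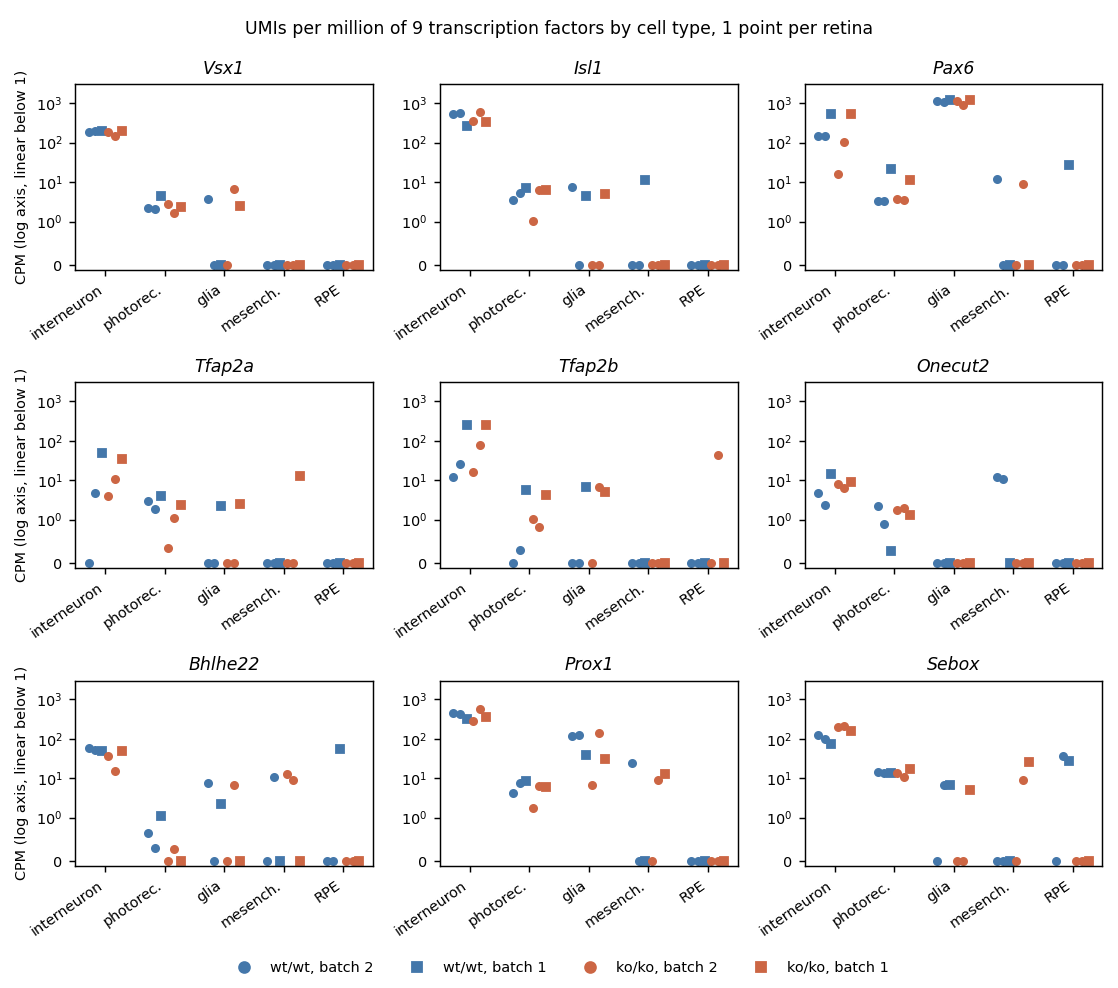
Level of each of the 9 genes by deposited cell type, in CPM on an axis that is linear below 1 and logarithmic above, with 1 point per retina (squares batch 1, circles batch 2, colours genotype). Interneurons hold the highest mean for every gene except Pax6, for which the 6 glia values, 894 to 1198 CPM, lie above all interneuron values.

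Pax6, a paired-box factor, was the member shared with glia. In glia it measured 1113 ± 118 CPM (SD, n = 6 retinas), and its values were 1153, 1064, 1198, 1173, 894 and 1198 CPM (wt/wt replicates 1 to 3, then ko/ko replicates 1 to 3, the order used throughout). A Pax6 UMI was seen in 75.5% of glia at a median depth of 1683 UMIs, against 17.5% of interneurons. The glia values spread little, while those of interneurons ran from 16.3 to 545 CPM and followed the batch. Of all Pax6 UMIs, 45.2% lay in interneurons, whereas for Vsx1, Isl1, Tfap2b and Bhlhe22 the share was 91.0% to 93.4%.

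Prox1 had a smaller second site in glia. Its glia values were 115, 127, 39.7, 6.70, 138 and 30.4 CPM, on 100 UMIs in all, and 9.13% of glia held a Prox1 UMI. The 3 highest of these values came from batch 2, as did the lowest. Antisense genes overlap Prox1 (Prox1os and Gm28172, 462 and 342 UMIs) and Pax6 (Pax6os1, 130 UMIs), and whether reads were assigned by strand is not given in the sources used here, so some counts may belong to either partner.

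Photoreceptors, which should lack most of these factors, were used to give a background, and the source of their UMIs was not tested. A member's UMI was found in 0.0189% (Bhlhe22) to 0.680% (Sebox) of photoreceptors. For 28 marker genes of interneurons with at least 20 UMIs the pooled photoreceptor level was 2.34% of the interneuron level at the median, with single genes from 0.577% to 98.4%. Vsx1, Isl1, Pax6, Tfap2b, Bhlhe22 and Prox1 lay between 0.842% and 2.17%. Sebox stood higher, at 10.7% on 296 UMIs, as did Onecut2 at 14.6% on 29 UMIs and Tfap2a at 7.51% on 45 UMIs.

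Sebox in photoreceptors was even across the retinas. Sebox, a homeobox gene of chromosome 11 (chr11:78503447-78505081 in GRCm38, plus strand), measured 14.6, 13.7, 13.4, 13.5, 10.9 and 17.1 CPM there. Of 288 photoreceptors with a Sebox UMI, 280 had only 1. A UMI of Trpm1 or Grm6, which build the ON bipolar light response, was found in 0.694% of these cells, in 0.784% of the photoreceptors without Sebox, and in 1.55% of those without Sebox that were at least as deep as the median cell with it. Vtn, a secreted matrix protein gene strongly expressed in photoreceptors, ends 1122 bases before Sebox on the same strand and had 35283 UMIs in photoreceptors. Vtn was found in 59.0% of the photoreceptors with Sebox, in 48.9% of those without, and in 75.7% of the deeper group without it. That group had a median of 811 UMIs against 630 in the cells with Sebox, so depth was not matched. Whether reads that run past the end of Vtn add to the Sebox counts was not tested.

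To place the 9 genes within the interneurons, these cells were clustered on variable genes with the 9 members left out, which gave 14 clusters. All 7 ON bipolar, 9 OFF cone bipolar and 5 rod bipolar markers on the lists used were detected in interneurons, as were 7 of 9 amacrine markers, while Chat and Slc18a3, the defining genes of cholinergic amacrine cells, had 0 UMIs. Clusters were named from these lists, which hold no member: 1 rod bipolar-like cluster (167 cells), 5 ON cone bipolar-like clusters (922 cells), 2 OFF cone bipolar-like clusters (486 cells) and 3 amacrine-like clusters (245 cells). Cluster 1 (134 cells, led by Calb1 and Stac2), cluster 3 (43 cells, led by cone genes such as Opn1sw and Arr3) and cluster 9 (86 cells, led by rod genes such as Rp1 and Pde6b) stayed unnamed. Cluster 1 was highest on the amacrine list, with 6 of its markers detected. It stayed unnamed because its 10 leading genes held 1 marker of another list and 0 amacrine markers.

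**Figure D2:**
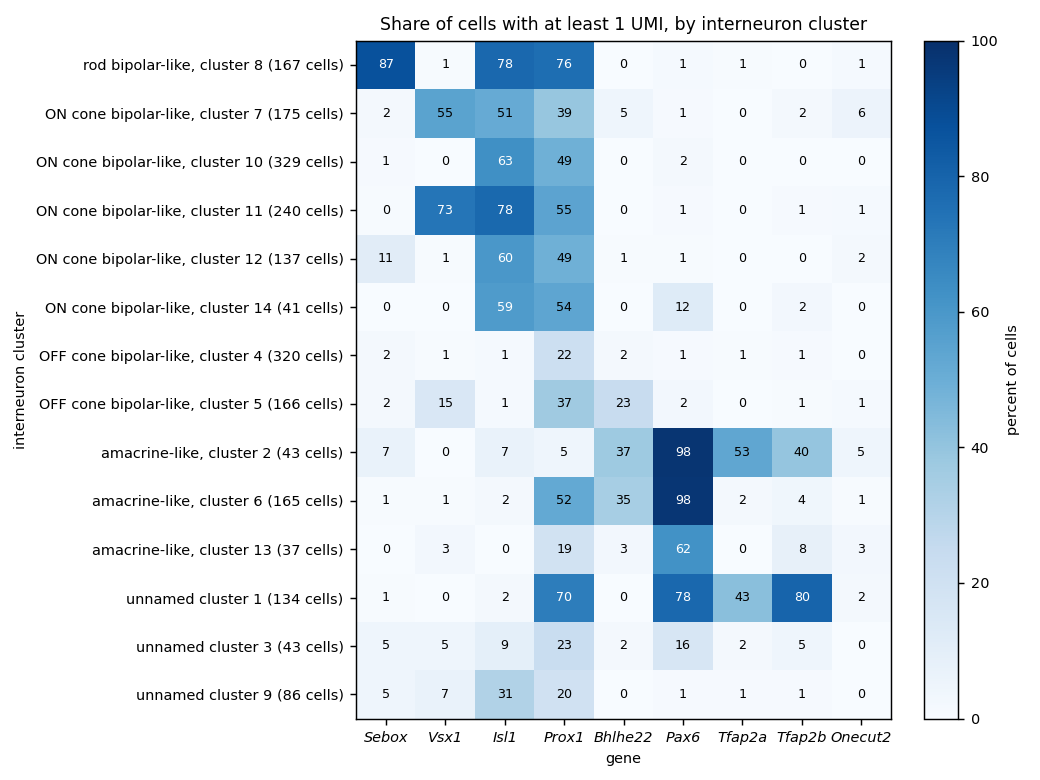
Percent of cells with at least 1 UMI of each gene (columns) in each of the 14 interneuron clusters (rows). Sebox is seen in 87.4% of cluster 8, Vsx1 in 73.3% of cluster 11 and 54.9% of cluster 7, and Pax6 in 97.6% of cluster 6 and 97.7% of cluster 2.

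Sebox was largely confined to 1 cluster. Cluster 8, the rod bipolar-like cells led by Prkca and Car8, held 90.9% of the Sebox UMIs of all interneurons. Per retina, Sebox there was 1097, 902, 1531, 1452, 1425 and 1758 CPM, and it was between 2.67 and 17.6 CPM in all other interneurons of the same retinas. Of the rod bipolar-like cells, 87.4% had a Sebox UMI at 1439 CPM pooled. Outside them, only cluster 9 (87.5 CPM, 4.65% of cells) and cluster 12 (74.8 CPM, 10.9% of cells) had pooled levels above 20 CPM.

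Vsx1 marked part of the cone bipolar cells and not the rod bipolar-like ones. The ON cone bipolar-like cells held 93.1% of its interneuron UMIs, with 365, 386, 513, 348, 311 and 504 CPM per retina. Within that class Vsx1 was confined to clusters 11 (1086 CPM, 73.3% of cells) and 7 (662 CPM, 54.9%), apart from 1 UMI in cluster 12 and 0 in clusters 10 and 14. In the rod bipolar-like cells it had 1 UMI, or 2.84 CPM. OFF cone bipolar-like cells split in the same way, with 124 CPM in cluster 5 and 5.796 CPM in cluster 4.

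Isl1, a LIM-homeodomain factor, was shared by rod bipolar-like and ON cone bipolar-like cells and nearly missing from the OFF ones. In rod bipolar-like cells it measured 1140, 1306, 504, 830, 1332 and 814 CPM and was seen in 78.4% of cells. In ON cone bipolar-like cells it measured 854, 961, 642, 464, 891 and 668 CPM and was seen in 64.0% of cells, with all 5 clusters between 426 and 1088 CPM. The OFF cone bipolar-like values, 0 to 45.4 CPM per retina, did not overlap either class. Amacrine-like cells held 9.51 CPM pooled.

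Prox1 was the broadest member, with a UMI in 923 of 2083 interneurons (44.3%). Its highest class level was in rod bipolar-like cells, 829 CPM pooled and 76.0% of cells, followed by cluster 1 (545 CPM), ON cone bipolar-like cells (432 CPM), cluster 9 (284 CPM) and OFF cone bipolar-like cells (220 CPM). Within the amacrine-like clusters it ranged from 9.74 CPM in cluster 2 to 277 CPM in cluster 6. Clusters 2 and 6 carried Pax6 in 97.7% and 97.6% of cells, at 1072 and 1910 CPM, so the level of both genes was higher in cluster 6. By the share of cells the 2 clusters were alike in Pax6, while Prox1 was seen in 4.65% and 52.1%.

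Bhlhe22 joined some OFF cone bipolar-like and amacrine-like cells. Its highest levels were in cluster 2 (205 CPM, 37.2% of cells), cluster 5 (157 CPM, 23.5%) and cluster 6 (155 CPM, 34.5%). Amacrine-like cells held 61.5% of its interneuron UMIs and OFF cone bipolar-like cells 30.2%. In rod bipolar-like cells 0 Bhlhe22 UMIs were counted, for which 3 counts would be 8.52 CPM. This floor, like all intervals here, covers counting error only. The other OFF cluster, cluster 4, had 19.3 CPM, so Bhlhe22 and Vsx1 both singled out cluster 5.

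Pax6, Tfap2a and Tfap2b were found mainly in the amacrine-like cells and in cluster 1. Pax6 measured 1613 CPM in the amacrine-like cells and 967 CPM in cluster 1, which held 73.2% and 24.2% of its interneuron UMIs. Tfap2b was highest in cluster 1 (1228 CPM, 79.9% of cells) and cluster 2 (1033 CPM, 39.5%), against 20.7 CPM in cluster 6. Tfap2a was found in the same 2 clusters at a lower level, with 248 CPM in cluster 2, 153 CPM in cluster 1 and 6.21 CPM in cluster 6. Cluster 6, the largest amacrine-like cluster, was therefore high in Pax6 and low in both AP-2 genes. Its leading genes included another AP-2 gene, Tfap2c.

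The amacrine members followed the batch in the interneuron sums. Pax6 measured 152, 144, 520, 16.3, 104 and 545 CPM, Tfap2a 0, 4.81, 48.3, 4.07, 10.8 and 34.3 CPM, and Tfap2b 11.9, 26.4, 252, 16.3, 77.7 and 255 CPM. In each of the 3 genes, both batch 1 retinas lay above all 4 batch 2 retinas. Amacrine-like cells made up 5%, 5.81%, 19.5%, 1.88%, 3.26% and 16.2% of the interneurons, and cluster 1 made up 0.385%, 1.66%, 9.67%, 1.25%, 3.99% and 10.6%. Within cluster 1 the Tfap2b level of the 3 retinas with at least 10 such cells was 1141 to 1330 CPM. The Pax6 level of glia was also highest in batch 1, but by a small margin, with 1198 CPM in both retinas against 894 to 1173 CPM in batch 2.

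**Figure D3:**
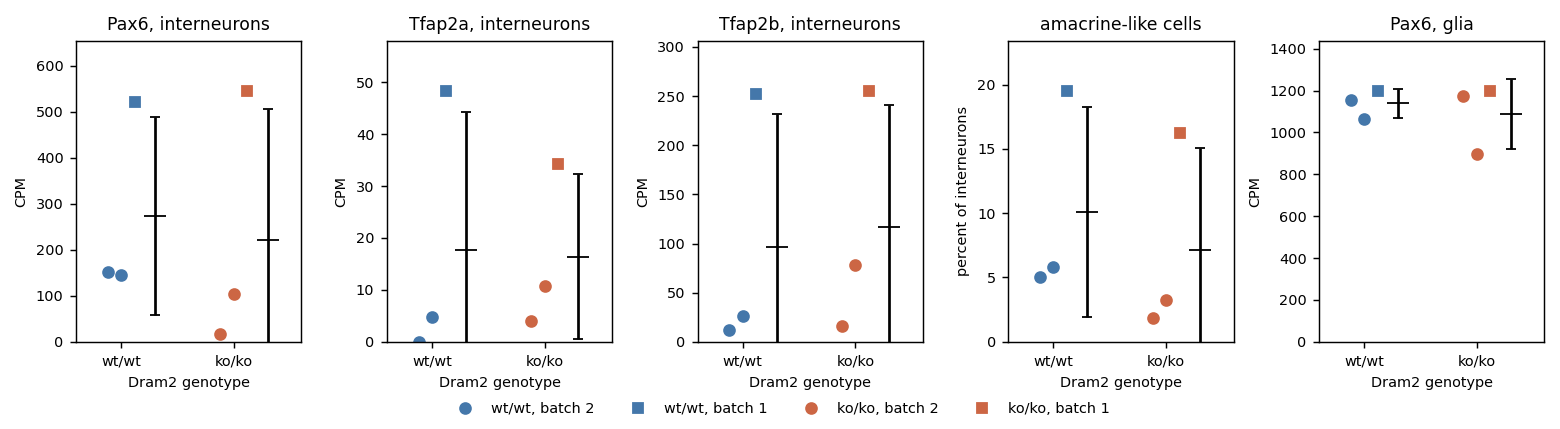
Pax6, Tfap2a and Tfap2b in interneurons and Pax6 in glia (CPM), with the share of amacrine-like cells among interneurons (percent), 1 point per retina (squares batch 1, circles batch 2). Bars give the mean ± SD of 3 retinas, cut at 0. The batch 1 retinas, with 16.2% and 19.5% amacrine-like cells, are the highest in each interneuron panel by a wide margin, and in the glia panel they lie at 1198 CPM against 894 to 1173 CPM.

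Onecut2 was rare, with 40 UMIs in 27 interneurons. Lhx1, a LIM-homeodomain factor that marks horizontal cells, was found in only 2 interneurons, both in cluster 1. The first, from wt/wt replicate 3, had 14982 UMIs, of which 8 were Onecut2, and the second, from ko/ko replicate 3, had 14489 UMIs, of which 7 were Onecut2. Both also held 6 UMIs of Onecut1, with 7 and 16 of Pax6, 10 and 16 of Tfap2b, and 10 and 7 of Prox1, and none of Vsx1, Isl1, Bhlhe22 or Sebox. These 2 cells therefore carried 15 of the 40 Onecut2 UMIs. The other 25 cells had 1 Onecut2 UMI each and 16 of them were ON cone bipolar-like. Of these, 10 lay in cluster 7 (24.5 CPM, where 3 counts would be 7.35 CPM), and clusters 10 and 14 held 0. In 36 cells with a Onecut1 UMI and no Lhx1 UMI, 31 of them in cluster 1, 0 had Onecut2.

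Per cell, 541 interneurons (26.0%) showed none of the 9 genes, 603 showed 1, 544 showed 2, 331 showed 3, 59 showed 4 and 5 showed 5. A missing UMI does not show that a gene is off at a median depth of 1844 UMIs. For each of the 36 pairs, the number of interneurons with both genes was set beside the number expected if the shares of cells with each gene in a retina were multiplied, summed over retinas. Expected numbers, also those within a set of clusters, pool clusters that differ in these genes. A departure in either direction can therefore come from the placement of the genes over clusters alone. Pairs within single clusters were not counted. At least 5 cells were expected for 31 pairs. Of these, 12 were seen together in under 0.5 times the expected number and 6 in over 1.5 times. After thinning 1829 cells to 1000 UMIs each, 10 of 22 such pairs were under 0.5 times and 6 were over 1.5 times. Without wt/wt replicate 3, 13 of 29 pairs were under and 10 were over.

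**Figure D4:**
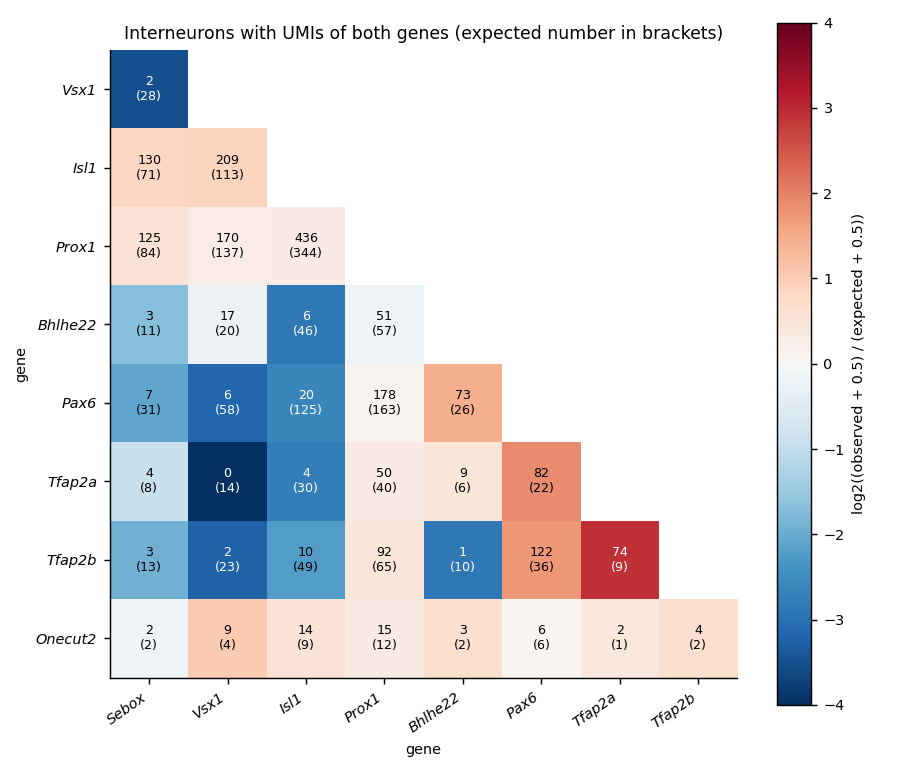
Interneurons with UMIs of both genes of each pair, with the number expected from the shares within each retina in brackets, coloured by log2 of (observed + 0.5) over (expected + 0.5). Vsx1 with Sebox stands at 2 cells against 27.8 expected, and Tfap2a with Tfap2b at 74 against 9.40.

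The bipolar members paired through Isl1. Vsx1 and Isl1 were seen together in 209 cells against 113 expected, and the observed number exceeded the expected one in each of the 6 retinas. Isl1 and Sebox shared 130 cells against 71.2 expected, and Prox1 and Sebox 125 against 84.4. Vsx1 and Sebox, in contrast, shared 2 cells against 27.8, with 0 or 1 cell in every retina, and 0 against 15.3 in the thinned cells. The exclusion of Vsx1 and Sebox also stood within the bipolar-like clusters alone, with 2 cells against 34.1 expected. Thus 67.2% of the Vsx1 cells and 68.8% of the Sebox cells had Isl1, while 0.643% and 1.06% had each other.

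Isl1 and Bhlhe22 were rarely seen together as well. They were seen together in 6 cells against 46.2 expected, in 3 retinas not at all, and within the bipolar-like clusters in 6 against 24.9. Vsx1, which is found on both the ON and the OFF side, was seen with Bhlhe22 in 17 cells against 20.1. Within the bipolar-like clusters the last pair was at 14 against 10.1. Isl1 and Pax6 shared 20 cells against 125 expected, and Vsx1 and Pax6 shared 6 against 57.7. Within the bipolar-like clusters, where Pax6 is rare, these pairs were near the expected number, with 10 against 12.0 and 4 against 5.11.

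Among the amacrine members, Tfap2a and Tfap2b were found together most often relative to expectation, in 74 cells against 9.40, and 84.1% of the Tfap2a cells held Tfap2b. Pax6 and Tfap2a shared 82 cells against 22.0, and Pax6 and Tfap2b 122 against 36.4. Most of these cells came from batch 1. Per retina, Tfap2a and Tfap2b met in 0, 1, 32, 1, 5 and 35 cells. Pax6 and Tfap2a met in 0, 1, 37, 0, 4 and 40, and Pax6 and Tfap2b in 1, 3, 56, 1, 6 and 55. Within the amacrine-like clusters and cluster 1, where nearly every cell with another member has Pax6, Tfap2a and Tfap2b still met in 72 cells against 30.9. Tfap2b and Bhlhe22 did not. They shared 1 cell against 26.0 in those clusters, although Pax6 accompanied both, in 119 and 72 cells. Pax6 and Prox1, at 178 against 163, were close to the expected number.

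The genes whose pooled cluster levels were most like a member's were sought among 7358 genes, by Pearson's r of log2(CPM + 10) over the 14 clusters. The clusters share libraries and differ in depth, so r is given as a description. Sebox was nearest to Cep112 (0.90), Car8 (0.89), a carbonic anhydrase-related gene used as a rod bipolar marker, and Bend4 (0.86). Vsx1 was nearest to Sec1 (0.89), Lhx3 (0.84), a LIM-homeodomain factor gene, and Guk1 (0.78), and Isl1 to Chtf18 (0.97), Grm5 (0.96), a glutamate receptor gene, and Gm30382 (0.93). Pax6 was nearest to Elavl3 (0.97), Rbfox2 (0.96), both neuronal RNA-binding protein genes, and Slc32a1 (0.96), the vesicular transporter of GABA and glycine. Tfap2a was nearest to Phlda1 (0.95), Tfap2b (0.93) and Ppp1r16b (0.91), and Tfap2b to Ppp1r16b (0.95), Tfap2a (0.93) and C1ql1 (0.93). Bhlhe22 was nearest to Flrt1 (0.87), Snx3 (0.86) and Calm2 (0.81), and Prox1 to Gm28172 (0.91), which overlaps it, Flii (0.87) and Cstb (0.84).

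Between genotypes, no member was called in any cell type or class in which it was tested. In mesenchymal and RPE cells no member passed the filter on low counts, and the unnamed clusters were not tested. In interneurons, edgeR's quasi-likelihood test called 0 of 7698 genes (0%) at an adjusted p under 0.05, with 86 at an unadjusted p under 0.05, and limma-voom and DESeq2 also called 0. Of the 9 members, 7 passed the filter on low counts, and Tfap2a and Onecut2 did not. The median log2 fold change of the 7, ko/ko over wt/wt, was -0.03, beside -0.01 over all genes tested. In photoreceptors (0 of 13053 genes), glia (0 of 4130) and the 4 named interneuron classes (0 of 447 to 0 of 4245) the members tested were also not called.

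Sebox had the smallest p of the members. Its interneuron values in CPM were 126, 98.6 and 75.3 for the wt/wt retinas and 203, 214 and 159 for the ko/ko ones, or 99.9 ± 25.2 against 192 ± 28.9 (SD, n = 3 each). All ko/ko retinas lay above all wt/wt retinas, as was the case for 199 of the 7698 genes tested (2.59%) and for no other member. The reverse held for 279 genes (3.62%) and for 0 members. By edgeR the log2 change was 0.97, with a standard error of 0.26, an unadjusted p of 0.00383 and an adjusted p of 1.00. With the batch as a covariate it was 0.98 (standard error 0.19), with an adjusted p of 0.341 by edgeR and 0.0906 by limma-voom. Within batch 2 the ratio of the means was 1.86, and within batch 1, with 1 retina each, it was 2.11. The study itself lists Sebox from these retinas, so its choice as a member is not independent of them.

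The Sebox difference was divided into the number of rod bipolar-like cells and the level within them. These cells numbered 25, 21, 25, 19, 33 and 44, which is 7.48% ± 2.96 of wt/wt interneurons and 10.7% ± 2.14 of ko/ko interneurons (SD, n = 3 each; exact two-sided permutation over retinas, p = 0.3, adjusted p = 0.6 over the 4 named classes). The ratio of the mean shares was 1.43, with 1.30 in batch 2 and 2.00 in batch 1. Within the class, Sebox had 1177 ± 322 CPM (wt/wt) against 1545 ± 185 (ko/ko), a ratio of 1.31, with 1.44 in batch 2 and 1.149 in batch 1. Within the class edgeR gave a log2 change of 0.35 with a standard error of 0.27 (adjusted p = 0.999), and with 1 retina left out it was lowest, at 0.19, when that was wt/wt replicate 2, and highest, at 0.62, when it was wt/wt replicate 3. The difference in share, 3.20 percentage points, ran from 1.52 (without wt/wt replicate 3) to 4.44 (without ko/ko replicate 3). In both parts the groups overlapped, while ko/ko lay above wt/wt in each of the 3 same-numbered pairs of retinas. The exact test of the share cannot go below 0.1 at this size, and the level within the class was not called.

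Per cell, 7.15% ± 1.47 of wt/wt and 11.8% ± 0.933 of ko/ko interneurons had a Sebox UMI (SD, n = 3 each), a difference of 4.64 percentage points (exact permutation over retinas, two-sided p = 0.1, which is the lowest value possible here, among 9 members compared). After thinning to 1000 UMIs the shares were 5.33% ± 1.92 and 10.6% ± 2.28 (exact permutation test, p = 0.1). In photoreceptors Sebox did not follow the genotype, where edgeR gave a change of 0.03 on the log2 scale with a standard error of 0.24. Vtn in interneurons, which can carry photoreceptor RNA, ran from 183 to 281 CPM among wt/wt and from 190 to 305 CPM among ko/ko retinas, and the summed rod markers were 8522 to 10953 CPM and 9529 to 12451 CPM. In the rod bipolar-like cells the summed cone markers were 528 to 1009 CPM among wt/wt and 403 to 444 CPM among ko/ko retinas, and the ON cone bipolar markers 23.7 to 69.6 CPM and 103 to 139 CPM. The amacrine markers were 0 to 52.2 CPM and 56.1 to 88.9 CPM there, and the endothelial markers 21.1 to 52.2 CPM and 0 to 9.35 CPM. These 4 lists did not overlap between the genotypes, and how many of all genes separate in this way there was not counted. The ranges of the other lists overlapped or touched there: rod bipolar, ON bipolar, cone bipolar, OFF cone bipolar, horizontal, ganglion, rod, Müller glia, RPE and microglia. The ON bipolar markers, for instance, were 24298 to 28541 CPM (wt/wt) and 26232 to 32980 CPM (ko/ko). The class sums held only 33748 to 106929 UMIs per retina, so the lists with low levels rest on few UMIs. The rod bipolar markers there ran from 6079 to 6383 CPM (wt/wt) and from 4534 to 6556 CPM (ko/ko). Their part in the Sebox values was not tested.

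**Figure D5:**
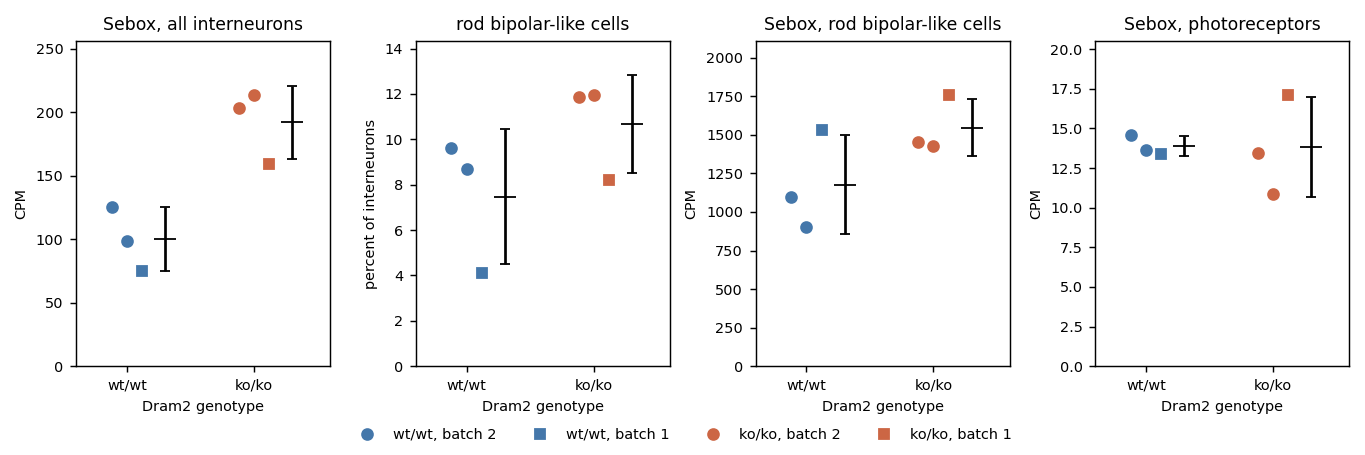
Sebox by retina: level in all interneurons (CPM), rod bipolar-like cells as percent of interneurons, level within rod bipolar-like cells (CPM) and level in photoreceptors (CPM). Squares are batch 1, circles batch 2, and bars the mean ± SD of 3 retinas. The genotypes separate in the first panel, 75.3 to 126 against 159 to 214 CPM, and overlap in the others.

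The other bipolar members were close between genotypes. Vsx1 had 193 ± 6.59 CPM in wt/wt interneurons and 176 ± 22.1 in those of ko/ko (SD, n = 3 each), which edgeR put at -0.13 (standard error 0.20) on the log2 scale. Isl1 was 454 ± 167 and 436 ± 157 CPM, a change of -0.03 (standard error 0.34), and Prox1 was 393 ± 64.9 and 405 ± 159 CPM, a change of 0.07 (standard error 0.28). In ON cone bipolar-like cells the changes were -0.12 for Vsx1, -0.27 for Isl1 and -0.07 for Prox1, with standard errors of 0.24, 0.26 and 0.25. In glia Pax6 changed by -0.12 (standard error 0.20) and Prox1 by -0.78 (standard error 0.73).

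For the amacrine members the batch widened the error. Pax6 had 272 ± 215 CPM in wt/wt interneurons and 222 ± 283 in those of ko/ko, a log2 change of -0.23 (standard error 0.80), and Tfap2b changed by 0.26 (standard error 0.90). With the batch as a covariate the values were -0.48 (standard error 0.30) for Pax6 and 0.49 (standard error 0.34) for Tfap2b, and the adjusted p stayed at 1.00 by edgeR. Tfap2a and Onecut2, below the filter, had overlapping groups. Pax6 within the amacrine-like cells changed by -0.41 (standard error 0.44), in a class with 3 cells in ko/ko replicate 1.

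Bhlhe22 measured 56.9, 50.5 and 47.6 CPM in the interneurons of wt/wt retinas and 36.6, 15.1 and 48.8 CPM in those of ko/ko. Its log2 change by edgeR was -0.53, with a standard error of 0.37 and an adjusted p of 1.00, and it was -1.08 without ko/ko replicate 3 and -0.21 without ko/ko replicate 2. The 2 batch 2 retinas of ko/ko were the lowest, and the batch 1 retinas of both genotypes were alike. Per cell, after thinning to 1000 UMIs, 4.99% ± 1.29 of wt/wt and 2.62% ± 0.865 of ko/ko interneurons had a Bhlhe22 UMI (SD, n = 3 each; exact permutation, p = 0.1), while without thinning the p was 0.4 by the same exact test. In OFF cone bipolar-like cells, a comparison chosen after its values were seen, Bhlhe22 was counted 14, 16 and 15 times for wt/wt and 2, 4 and 7 times for ko/ko, or 105 ± 43.8 against 37.9 ± 3.92 CPM (SD, n = 3 each; p = 0.1 by exact permutation, the smallest possible). Vsx1 had 9, 9 and 15 UMIs there against 0, 5 and 3, or 70.8 ± 11.7 against 21.9 ± 24.2 CPM. Pax6 also had all 3 ko/ko values below the wt/wt ones, on 9 UMIs in all. These 3 members did not overlap between genotypes but failed the filter on low counts. Among the 2653 genes that passed it 3.39% lay lower and 4.18% higher in all ko/ko retinas. Those shares are for genes with more counts and are no like measure for the 3 members. The share among genes below the filter was not counted. Without the filter, edgeR gave Bhlhe22 a log2 fold change of -1.35 and Vsx1 one of -1.52, each with an adjusted p of 0.889.

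Both genes mark cluster 5, so its share of the OFF cone bipolar-like cells was examined. It was 33.7%, 51.5%, 29.9%, 20.5%, 35.3% and 33.7%, or 38.4% ± 11.53 (wt/wt) against 29.8% ± 8.15 (SD, n = 3 each, exact permutation test, p = 0.5). Within cluster 5, Bhlhe22 was 153, 263, 155, 159, 97.7 and 96.9 CPM, with overlapping groups. Vsx1 there was 174, 148, 155, 0, 122 and 48.5 CPM, on 9 cells in ko/ko replicate 1. These values rest on 8, 9, 13, 0, 5 and 3 UMIs. The groups did not overlap (exact permutation test, p = 0.1, the smallest possible). How many of all genes separate in this way within cluster 5 was not counted.

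A list of 61 other transcription factors of inner retinal neurons gave no call either. Of these, 31 were tested in interneurons, 0 were higher and 0 lower at an adjusted p under 0.05 by edgeR, and at an unadjusted p under 0.05 there were 0 higher and 3 lower, beside 86 in either direction among all 7698 genes tested. With the batch as a covariate there were 4 lower, beside 214 in all. The median log2 fold change of the 31 was -0.12, beside -0.01 over all genes tested. The shares of ON cone bipolar-like (45.0% against 47.9%), OFF cone bipolar-like (27.4% against 22.9%) and amacrine-like cells (10.1% against 7.12%, wt/wt against ko/ko) gave p = 0.6, 0.4 and 0.5 in the exact permutation test (adjusted p = 0.6 each), which with 3 retinas against 3 cannot go below 0.1. Retinas were shuffled across batches in this test, so differences between the batches add to its spread. The OFF cone bipolar-like and amacrine-like shares were lower in ko/ko in each of the 3 same-numbered pairs of retinas. The ON cone bipolar-like share was higher in 2 of 3. That last count depends on how batch 2 is paired, since its shares there were 46.2% and 49.8% (wt/wt) and 53.1% and 48.9% (ko/ko).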

How the data were processed

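Droplet sequencing covered 6 retinas, 3 of each Dram2 genotype. The authors made the deposited counts with Cell Ranger 3.1.0 on GRCm38 from exonic reads. They are raw UMI counts per gene and cell, not normalized. Cell types were assigned by the authors in Seurat (LogNormalize, CCA over the batch, Louvain clusters). Cell barcodes are replaced by running names in the table, so barcodes shared between libraries were not counted. A filter on cells was not applied.

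For each retina, UMIs were added up over the cells of a type. Genotypes were compared with edgeR 4.0.16 in R 4.3.3 (glmQLFit and glmQLFTest, TMM factors, filterByExpr, genotype only, Benjamini-Hochberg over all genes tested). Standard errors given with edgeR were derived from its test, as the absolute log2 change divided by the square root of the F statistic. The study used limma-voom. Single values were compared with exact permutation tests over retinas, which did not take the batch into account. CPM use the total of each sum, without TMM factors. Interneurons were clustered with scanpy 1.11.5 (1500 variable genes without the members, 20 principal components, 15 neighbours, leiden resolution 1). For each cluster, the class with the highest summed marker level relative to all interneurons was taken. It was kept as a name where at least 3 of its markers were detected. The 10 leading genes also had to hold no more markers of another class than of its own, and under 3 of rods or cones. Clusters 6 and 13, named amacrine-like, held 0 amacrine markers among these 10. This scoring was set after seeing the clusters. Scrublet marked 3 cells (0.00647%), so it has not worked here as a doublet caller. Removing the 5% highest scores was an alternative, as were limma-voom, DESeq2 1.42.0, RLE factors, no filter, the batch as covariate, a replicate block, a stricter set of cells (500 UMIs or more, mitochondrial share up to 10%), thinning to 1000 UMIs and leaving out each retina. Deviations of same-numbered retinas from their genotype mean correlated positively in the interneuron sums (r = 0.105, 0.340 and 0.577). Number 3 also marks batch 1 in both genotypes, so the numbers were taken as pairs, although the labels do not pair the retinas. Within batch 2 the number did not always mark the closest retina, since wt/wt replicate 1 had r = 0.328 with ko/ko replicate 2. The fits were tested on simulated sums with a fixed dispersion and no batch difference. That test therefore cannot show how they behave with the batch difference seen here.

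The members and lists were chosen with earlier results of these data known. Named are all members, the 3 genes most like each member with at least 100 interneuron UMIs, genes of the other transcription factor list that pass the test (at most 5 per direction), and genes that overlap or adjoin a member.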

Additional observations from a re-analysis of the deposited data

Results flagged for a closer look

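The 629 cells without a deposited type stand outside every comparison, and 2 members had more than the 3 counts that a count of 0 allows there, 7.91 CPM. Sebox had 10 UMIs in 10 of these cells, or 26.4 CPM, beside 14.0 CPM pooled in photoreceptors and 131 CPM in interneurons. Pax6 had 7 UMIs in 7 cells, or 18.5 CPM, beside 8.24 CPM pooled in photoreceptors. The other 7 members had 0 to 2 UMIs.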

How the results depend on the processing

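No member was called under the alternatives in any cell type or class in which it was tested, and the unnamed clusters were not tested. For Sebox in interneurons the log2 change stayed between 0.77 and 1.19, with the lowest value without wt/wt replicate 3, and its adjusted p was 1.00 in the main comparison, 0.341 with the batch as covariate, 0.225 with the replicate block and 0.0906 with the batch in limma-voom. The block changed no call of a member. It gave 26 calls among mesenchymal cells and 4 among RPE cells, where the main comparison gave 0 (150 and 11 genes at an unadjusted p under 0.05). Without the filter there was 1 call in interneurons, 1 in photoreceptors, 28 among mesenchymal and 3 among RPE cells. With the batch as covariate there were 21 and 3 in the last 2 types, and in limma-voom 35, 5 and, in amacrine-like cells, 27. DESeq2 called 1 gene in RPE cells. Leaving out 1 retina gave 0 to 7 calls among mesenchymal cells (7 without ko/ko replicate 2) and 0 to 2 among RPE cells (2 without wt/wt replicate 3). The causes were not tested. Pairs of members over 1.5 times the expected number were 6 to 10, the highest without wt/wt replicate 3.

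Changes near 0 turned sign. The log2 change of Isl1 in interneurons, -0.03, became 0.018 with limma-voom, 0.037 with the batch as covariate, 0.029 with the batch in limma-voom, 0.0075 with the replicate block and 0.0010 without the highest doublet scores. Leaving out 1 retina gave -0.38 to 0.19 for Isl1, -2.05 to 0.69 for Pax6, -0.30 to 0.28 for Prox1 and -1.04 to 2.76 for Tfap2b. The difference in the share of interneurons with a UMI (ko/ko minus wt/wt, percentage points) turned for Isl1 after thinning (-0.892) and within batch 2 (-0.874), for Prox1 in the stricter cells (1.28) and within batch 1 (4.37), and within batch 1 for Vsx1 (1.59), Onecut2 (-1.01) and Bhlhe22 (0.623). Leaving out 1 retina, it ran from -3.24 to 4.79 for Isl1, -0.298 to 0.560 for Onecut2, -10.5 to 3.73 for Pax6, -4.41 to 5.87 for Prox1, -1.13 to 3.01 for Tfap2a, -2.29 to 4.42 for Tfap2b and -2.38 to 0.953 for Vsx1. For the classes it ran from -0.0923 to 5.98 for ON cone bipolar-like and from -7.54 to 1.72 for amacrine-like cells. Tfap2a and Onecut2 were below the filter on low counts in the main comparison of interneurons.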
